A study of Homo sapiens with 6 samples.

Results

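The protein-coding genes whose symbols start with NDUF encode the nuclear part of respiratory complex I and the factors that build it. The deposited gene table held 48 of them among 58938 entries, taken by biotype and symbol alone. Of the 48, 37 encode subunits of the finished enzyme and 8 encode assembly factors (the NDUFAF genes). The other 3 are NDUFA4, whose protein is now placed in complex IV, its paralog NDUFA4L2, and the readthrough gene NDUFC2-KCTD14.

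RNA was sequenced from HCT116, an established human colorectal cancer cell line, to study the kinase MST3. MST3 cells carried a plasmid that overexpresses MST3, which the gene STK24 encodes, and gave 3 libraries. Vector cells were labelled wild type, received a vector and also gave 3 libraries. All cells were grown in IMDM with 10% serum, lipofected at 60% density, given fresh medium at 6 hours and harvested at 30 hours. Transfection was transient in a population of cells, so a bulk level is a mean over cells that took up plasmid and cells that did not, and fewer cells of a kind cannot be told apart from less RNA per cell. The labels number the libraries 1 to 3 within each group and do not say that they came from separate cultures, so each p-value reflects the variation among these libraries alone, and that variation may be technical.

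Levels are FPKM, the fragments on a gene per kilobase of its exons, as the authors scaled them for each library. In what follows, values in 3 libraries are given in the order of replicates 1, 2 and 3. STK24 stood at 63.7, 72.2 and 76.0 FPKM in MST3 libraries, against 17.1, 17.4 and 17.4 FPKM in vector libraries, which matches the labels. The epithelial genes EPCAM and KRT18 were at or above 78.7 FPKM in every library, while VIL1, a gene of the intestinal brush border, was at or under 0.0331 FPKM. The leukocyte gene PTPRC was at or under 0.0126 FPKM, and COL1A1, known from fibroblasts, was at 3.72 to 4.97 FPKM. STK24 was the only gene of 13036 tested with an adjusted p under 0.05 (limma, adjusted p = 0.000998). The reads behind the FPKM values came to 15289213, 17209736 and 17178700 in MST3 libraries and to 17708029, 17506541 and 17296201 in vector libraries. MST3 replicate 1 was the shallowest library and stood apart in having reads on 27442 genes, against 25099 to 25501 genes in the other 5 libraries. Reads on the 48 NDUF genes made up 0.212, 0.160 and 0.173% of all reads in MST3 libraries and 0.156, 0.154 and 0.158% in vector libraries.

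Complex I takes electrons from NADH in the mitochondrial matrix, passes them along a chain of iron-sulphur clusters to ubiquinone, and pumps protons across the inner membrane. It is L-shaped. Its matrix arm carries the flavin, the clusters and the quinone site, and its membrane arm does the pumping. The core subunits, which bacteria also have, are encoded in the nucleus for the matrix arm and in mitochondrial DNA for the membrane arm. Supernumerary subunits, all nuclear-encoded, surround the core and stabilise it. Assembly factors help to put modules together and are absent from the finished enzyme.

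The promoters of these genes were read for motifs of 3 regulators that are known to act on respiratory genes. RefSeq windows on GRCh38.p14, spanning 250 bases before to 50 bases after each start, were given for 40 of the 48 genes. The motifs were the palindromic NRF1 motif (exact letters only), CCGGAA for ETS factors such as GABPA, and ATGGCGG, which lies within the YY1 motif, each searched on both strands. None of the 3 contains another. Some genes had several windows, and a gene was counted if any of its windows held the motif. ATGGCGG was in 15 of 32 subunits with a window (46.9%), in 2 of 7 such assembly factors (28.6%) and in 6.7% of the 27305 genes in the promoter table. CCGGAA was in 8 of 32 subunits (25.0%), in 4 of 7 assembly factors (57.1%) and in 20.1% of all genes. The NRF1 motif was in 2 of 32 subunits (6.2%), in 1 of 7 assembly factors (14.3%) and in 1.5% of all genes.

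Most ATGGCGG matches lay at the start of the transcript. There were 18 matches in 17 NDUF genes, and 15 of them read ATGGCGG on the gene's own strand. Of the 18, 14 began after the annotated start, and they ran from position -177 to position 41 counted from it. ATG is also the start codon, so a match in that place can hold the first codons of the protein. Sites of 30 bases are shown for genes whose levels are described later on, with the motif in capitals: NDUFA6 (chr22:42090726-42090755, minus strand), NDUFB8 (chr10:100529833-100529862, minus), NDUFS6 (chr5:1801407-1801436, plus), NDUFS3 (chr11:47579081-47579110, plus), NDUFS7 (chr19:1383916-1383945, plus) and NDUFAF8 (chr17:81239319-81239348, plus).
NDUFA6: gctttggcaagATGGCGGggagcggcgtcc
NDUFB8: agaaggtgaagATGGCGGtggccagggccg
NDUFS6: agcggcgcaaaATGGCGGcggcgatgacct
NDUFS3: atctgagtaacATGGCGGcggcggcggtag
NDUFS7: ccgaggccaagATGGCGGtgctgtcaggtg
NDUFAF8: acggacctaagATGGCGGcctccagggggc
In all 6 the motif reads on the gene's own strand and begins 12 to 29 bases after the annotated start.

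The 150 bases before the start are shown for NDUFB7, the subunit with the smallest p, and for the assembly factor NDUFAF4, with CCGGAA in capitals. The NDUFB7 stretch is chr19:14572067-14572216 and that of NDUFAF4 is chr6:96897892-96898041, both on the minus strand of GRCh38.p14.
NDUFB7: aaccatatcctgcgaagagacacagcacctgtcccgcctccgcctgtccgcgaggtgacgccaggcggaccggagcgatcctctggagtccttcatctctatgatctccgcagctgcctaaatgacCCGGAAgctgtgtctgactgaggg
NDUFAF4: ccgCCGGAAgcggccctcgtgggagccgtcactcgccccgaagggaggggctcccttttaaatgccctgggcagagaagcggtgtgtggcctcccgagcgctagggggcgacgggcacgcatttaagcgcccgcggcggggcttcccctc
In NDUFB7 the motif begins at position -24, close to the start, and in NDUFAF4 at position -147. A match describes these letters and is not a bound site. The 14 tested subunits with ATGGCGG had a median log2 difference of 0.06 between MST3 and vector cells, and the 17 without it had 0.24. Those with CCGGAA had 0.25 (8 subunits) and those without had 0.19 (23 subunits). By library, subunits with ATGGCGG stood at medians of 0.10, 0.04 and 0.17 relative to the vector mean in MST3 replicates 1, 2 and 3, and those without it at 0.61, 0.05 and 0.14, so the order turned in MST3 replicate 3. For CCGGAA the medians were 0.44, 0.09 and 0.08 with it and 0.41, 0.02 and 0.18 without it. ATGGCGG was in 5 of 6 core subunits with a window and in 10 of 26 such supernumerary subunits. Its presence thus cannot be told apart from the role of the subunit in this split, and gene length differs by role too.

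No complex I gene passed the test between MST3 and vector cells. Differences are MST3 minus vector on the scale log2(FPKM + 1), tested by limma for the 13036 genes that averaged 1 FPKM or more, and this scale understates the change of low genes. Of the 48 NDUF genes 45 were tested, namely 36 subunits, all 8 assembly factors and NDUFA4. None was called at an adjusted p under 0.05 (smallest 0.719), where 0.00767% of all genes were called higher and 0% lower. At an unadjusted p under 0.05, 4 subunits (NDUFB7, NDUFB2, NDUFA2 and NDUFS6) and 1 assembly factor (NDUFAF8) were higher and 0 members were lower, beside 3.51% of all genes higher and 1.86% lower. Voom on the recovered reads also called 0 members.

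Subunits were mostly on the higher side in MST3 cells without passing the test. Of the 36 tested subunits 30 had a positive difference, as did 46.6% of all genes. In 8 of the 36 the lowest MST3 library lay above the highest vector library, beside 5.19% of all genes, and in 0 it lay the other way round, beside 6.7% of all genes. The median difference over subunits was 0.21 on the log2 scale, against -0.01 over all genes tested. Without MST3 replicate 1 the subunit median was 0.07 and 25 of 36 were positive (48.8% of all genes).

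The libraries contributed unequally. Relative to the vector mean, the median log2 level of the 36 subunits was 0.41, 0.04 and 0.14 in MST3 libraries and 0.02, -0.02 and 0.01 in vector libraries. MST3 replicate 1 held the highest value of all 6 libraries for 22 of 36 subunits, beside 18.1% of all genes. MST3 replicate 3 was highest for 9 of 36, beside 28.4% of all genes. The summed level of the subunits was 1013, 717 and 787 FPKM in MST3 libraries, against 689.6, 685.6 and 690.9 FPKM in vector libraries. MST3 replicates 1 and 3 lay well above the vector libraries, and MST3 replicate 2 lay close above them.

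**Figure D1:**
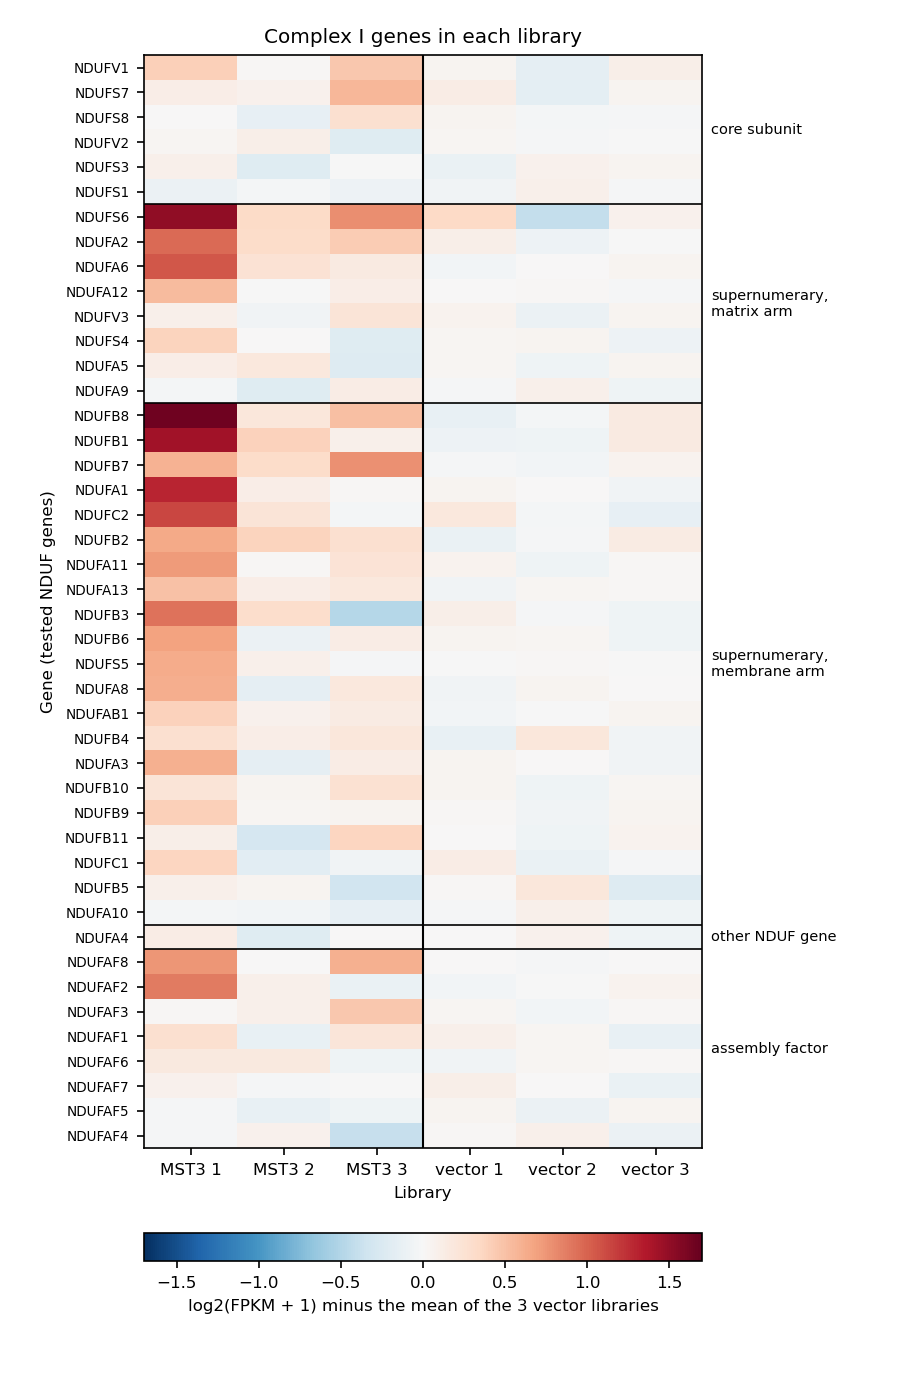
Log2(FPKM + 1) of tested NDUF genes (rows, by role, 1 core subunit not shown) in each library (columns, MST3 replicates 1 to 3 left and vector replicates 1 to 3 right) minus the vector mean of that gene. Of the 36 subunits, 33, 24 and 25 are above the vector mean in MST3 replicates 1, 2 and 3, and of the 8 assembly factors 6, 5 and 3 are.

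The 7 core subunits encoded in the nucleus bind the flavin and the iron-sulphur clusters or form the quinone site. Of these 4 were higher and 3 lower in MST3 cells, none with a p under 0.05, and their median difference was 0.05. Their median level relative to the vector mean was 0.09, 0.02 and 0.24 in MST3 libraries. MST3 replicate 1 was the highest library for 1 of the 7 and MST3 replicate 3 for 4 of them.

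NDUFV1 carries the flavin that accepts electrons from NADH. It measured 26.7, 20.1 and 27.7 FPKM in MST3 libraries, against 20.5, 17.8 and 21.2 FPKM in vector libraries. MST3 replicates 1 and 3 were above all vector libraries and MST3 replicate 2 was inside their range. Its log2 difference of 0.30 was the largest among core subunits (limma, adjusted p = 0.719).

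NDUFV2, which holds the cluster next to the flavin, was low, with 1.41, 1.51 and 1.03 FPKM in MST3 libraries and 1.41, 1.31 and 1.33 FPKM in vector libraries. NDUFS1 carries further clusters of the NADH-oxidising module and measured 8.29, 8.69 and 8.33 FPKM in MST3 libraries and 8.55, 9.53 and 8.77 FPKM in vector libraries. In both genes the groups overlapped, with log2 differences of -0.03 and -0.08. NDUFV2 shares 28.4% of its exon bases with a gene on the same strand, which can move reads.

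NDUFS7 carries the last cluster before ubiquinone. It measured 2.60, 2.48 and 3.93 FPKM in MST3 libraries, against 2.64, 1.94 and 2.41 FPKM in vector libraries. MST3 replicate 3 was the highest library and the groups overlapped, with a log2 difference of 0.25. Exons of genes on the opposite strand cover 49.1% of the NDUFS7 exon bases, and the strand setting of the counting is not given in the sources used here, so reads of NDUFS7 and of those genes may be mixed.

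NDUFS3 and NDUFS8 also belong to the quinone-reducing module, NDUFS8 with clusters of its own. NDUFS3 measured 13.1, 10.5 and 12.2 FPKM in MST3 libraries, against 11.3, 13.0 and 12.7 FPKM in vector libraries. NDUFS8 measured 15.1, 13.6 and 18.4 FPKM in MST3 libraries, against 15.6, 14.7 and 14.8 FPKM in vector libraries. Neither separated the groups, with log2 differences of -0.04 and 0.05.

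Of the 9 supernumerary subunits of the matrix arm 8 were tested. In MST3 cells 7 of the 8 were higher, where 46.6% of all genes were. At an unadjusted p under 0.05, 2 of the 8 were higher, beside 3.51% of all genes. Without overlap with vector, 2 of the 8 were higher, beside 5.19% of all genes. The median difference of the 8 was 0.15, and 0.07 without MST3 replicate 1. Their median level relative to the vector mean was 0.46, 0.10 and 0.14 in MST3 libraries.

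NDUFA2 is a small subunit of the NADH-oxidising module with a thioredoxin-like fold (ENSG00000131495, chr5:140638740-140647785, minus strand, GRCh38). It measured 18.9, 11.7 and 12.8 FPKM in MST3 libraries, against 9.94, 8.59 and 9.13 FPKM in vector libraries. All MST3 libraries lay above all vector libraries. The means were 14.4 ± 3.87 FPKM in MST3 cells and 9.22 ± 0.682 FPKM in vector cells (SD, n = 3 each), a ratio of 1.57, or 1.33 without MST3 replicate 1. The log2 difference was 0.57 (SE 0.17, limma, adjusted p = 0.719).

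NDUFS6 binds zinc in the same module (ENSG00000145494, chr5:1801400-1816605, plus strand). It measured 29.7, 12.5 and 17.7 FPKM in MST3 libraries, against 12.7, 7.16 and 10.4 FPKM in vector libraries. MST3 replicate 1 was 1.68 times the next library, and MST3 replicate 2 lay just under vector replicate 1. The means were 20.0 ± 8.82 FPKM in MST3 cells and 10.1 ± 2.77 FPKM in vector cells (SD, n = 3 each), a ratio of 1.98, or 1.5 without MST3 replicate 1. The log2 difference of 0.87 (SE 0.31) was the largest of any NDUF gene tested (limma, adjusted p = 0.719), and its 95% interval of 0.14 to 1.60 was wide.

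NDUFA6 is an LYR-motif protein that binds the mitochondrial acyl carrier protein, NDUFAB1. It measured 38.5, 21.5 and 20.1 FPKM in MST3 libraries, against 17.4, 18.1 and 18.6 FPKM in vector libraries. The groups did not overlap, but MST3 replicate 1 was 1.79 times the next library, and the ratio of means of 1.48 became 1.15 without it. The lowest tested subunit was NDUFA9, with 1.21, 0.953 and 1.47 FPKM in MST3 libraries and 1.23, 1.39 and 1.14 FPKM in vector libraries.

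The 21 supernumerary subunits of the membrane arm, grouped here with NDUFAB1, were all tested. In MST3 cells 19 were higher and 2 lower, where 46.6% of all genes were higher. At an unadjusted p under 0.05, 2 of the 21 were higher, beside 3.51% of all genes. Without overlap, 6 of the 21 were higher, beside 5.19% of all genes, and 0 were lower, beside 6.7%. The median difference of the 21 was 0.23, and 0.07 without MST3 replicate 1. Their median level relative to the vector mean was 0.61, 0.08 and 0.13 in MST3 libraries. MST3 replicate 1 was the highest library for 16 of the 21.

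NDUFB7 sits on the intermembrane-space side of the arm and is held in shape by disulphide bonds (ENSG00000099795, chr19:14566078-14572062, minus strand, exons of 531 bp in all). It measured 73.9, 60.9 and 84.6 FPKM in MST3 libraries, against 47.9, 47.4 and 51.0 FPKM in vector libraries. Every MST3 library was above every vector library, and MST3 replicate 3 rather than replicate 1 was the highest. The means were 73.1 ± 11.9 FPKM in MST3 cells and 48.8 ± 1.99 FPKM in vector cells (SD, n = 3 each), a ratio of 1.5, or 1.49 without MST3 replicate 1. Its log2 difference was 0.56 (SE 0.13, 95% interval 0.26 to 0.86), with the smallest p of any NDUF gene (limma, adjusted p = 0.719). NDUFB7 is the shortest subunit tested, with a GC content of 65%. With a smooth trend on length and GC content removed from every library, its difference was 0.34, the lowest among the alternatives.

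NDUFB2 is a small subunit of the distal membrane arm (ENSG00000090266, chr7:140690777-140722790, plus strand). It measured 8.76, 7.09 and 6.55 FPKM in MST3 libraries, against 4.76, 5.17 and 5.85 FPKM in vector libraries. The groups did not overlap, with the lowest MST3 library close above the highest vector library. The ratio of means was 1.42, or 1.30 without MST3 replicate 1, and the log2 difference was 0.43 (SE 0.12, limma, adjusted p = 0.719). Exons of genes on the opposite strand cover 35.1% of its exon bases.

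NDUFB8, a distal subunit often used as an antibody marker of the assembled complex, measured 12.3, 3.86 and 5.02 FPKM in MST3 libraries, against 2.87, 3.15 and 3.73 FPKM in vector libraries. The groups did not overlap, although MST3 replicate 2 was only just above vector replicate 3. MST3 replicate 1 was 2.45 times the next library, so the ratio of means of 2.17 became 1.37 without it. The log2 difference was 0.78 (limma, adjusted p = 0.719). A second protein-coding gene on the same strand covers 33.8% of its exon bases.

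NDUFB1, another small distal subunit, measured 8.39, 3.59 and 2.71 FPKM in MST3 libraries, against 2.31, 2.35 and 2.89 FPKM in vector libraries. MST3 replicate 3 lay inside the vector range and MST3 replicate 1 was 2.34 times the next library. The ratio of means was 1.95, or 1.25 without MST3 replicate 1. NDUFAB1, the mitochondrial acyl carrier protein, measured 53.0, 42.6 and 44.5 FPKM in MST3 libraries, against 39.1, 40.1 and 41.7 FPKM in vector libraries. Here the groups did not overlap and the ratio was 1.16, or 1.08 without MST3 replicate 1.

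For 9 NDUF genes a single library was more than 1.5 times the next, and in all 9 it was MST3 replicate 1. Besides NDUFS6, NDUFA6, NDUFB8 and NDUFB1 they were NDUFA1, NDUFC2, NDUFA11, NDUFB3 and the assembly factor NDUFAF2. Among the 45 tested NDUF genes, none had a single library lower than the next by that factor.

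NDUFA1, a small membrane subunit encoded on the X chromosome, measured 55.2, 23.6 and 22.2 FPKM in MST3 libraries, against 22.6, 22.0 and 20.9 FPKM in vector libraries. Its ratio of means of 1.54 became 1.05 without MST3 replicate 1, and exons on the opposite strand cover 44.5% of its exon bases. NDUFC2, a subunit of the proximal membrane arm, measured 5.08, 2.24 and 1.72 FPKM in MST3 libraries, against 2.15, 1.72 and 1.51 FPKM in vector libraries. Its ratio of 1.68 became 1.10. In these genes MST3 replicates 2 and 3 were near the vector libraries.

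NDUFA11, a membrane arm subunit, measured 3.85, 1.97 and 2.45 FPKM in MST3 libraries, against 2.06, 1.77 and 1.97 FPKM in vector libraries. NDUFB3, a distal membrane arm subunit, measured 27.4, 17.3 and 9.68 FPKM in MST3 libraries, against 15.0, 13.6 and 13.2 FPKM in vector libraries, so that MST3 libraries were both its highest and its lowest. The subunit with the highest level was NDUFS5, an intermembrane-space subunit, with 198, 136 and 125 FPKM in MST3 libraries, against 127, 129 and 127 FPKM in vector libraries. Its MST3 replicate 3 lay just under all vector libraries while MST3 replicate 1 stood far above them.

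**Figure D2:**
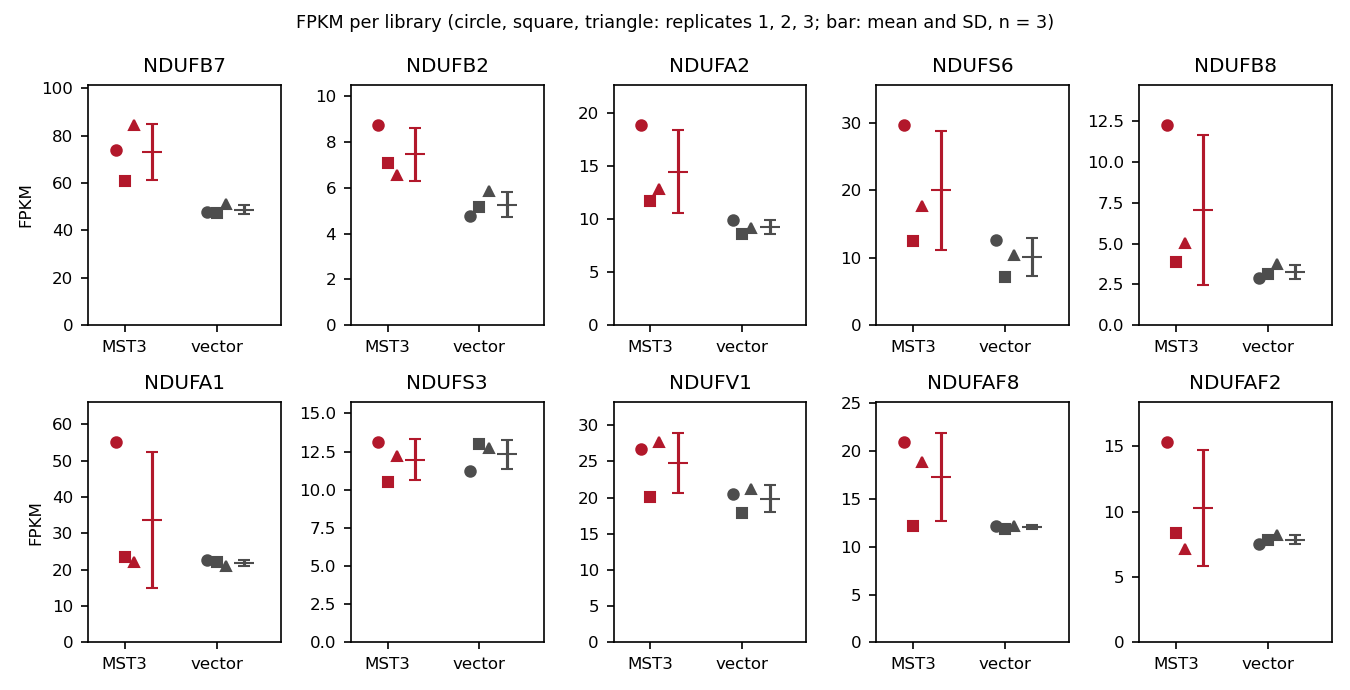
FPKM (vertical axis, from 0, a scale for each gene) in MST3 libraries (left) and vector libraries (right) for 8 subunits and 2 assembly factors, with circles, squares and triangles for replicates 1, 2 and 3 and bars for the mean and SD of the 3 libraries. NDUFB7, NDUFB2, NDUFA2, NDUFB8 and, only just, the assembly factor NDUFAF8 separate the groups. In NDUFA1 and NDUFAF2 only the circle of MST3 replicate 1 stands apart.

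The 8 NDUFAF assembly factors had lower levels than the subunits, with a median of 5.74 FPKM over all libraries against 13.6 FPKM for subunits. In MST3 cells 6 of the 8 were higher and 2 lower, where 46.6% of all genes were higher. Only NDUFAF8 was higher at an unadjusted p under 0.05, as were 3.51% of all genes. It was also the only 1 of the 8 higher without overlap, as were 5.19% of all genes. The median difference of the 8 was 0.10, and 0.01 without MST3 replicate 1. The highest was NDUFAF8, with a mean of 14.7 FPKM, and the lowest was NDUFAF5, with a mean of 1.26 FPKM.

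NDUFAF8 partners NDUFAF5 in modifying NDUFS7 during assembly (ENSG00000224877, chr17:81239239-81241281, plus strand). It measured 21.0, 12.2 and 18.8 FPKM in MST3 libraries, against 12.2, 11.9 and 12.2 FPKM in vector libraries. MST3 replicate 2 was only just above the highest vector library, and MST3 replicates 1 and 3 were well above. The log2 difference was 0.45 (SE 0.18, limma, adjusted p = 0.719), and the ratio of means of 1.44 became 1.28 without MST3 replicate 1. NDUFAF5 itself measured 1.29, 1.12 and 1.21 FPKM in MST3 libraries, against 1.39, 1.17 and 1.41 FPKM in vector libraries, with overlapping groups.

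NDUFAF3 acts with NDUFAF4 on the quinone-reducing module. It measured 12.6, 13.2 and 17.5 FPKM in MST3 libraries, against 12.8, 12.0 and 12.6 FPKM in vector libraries. Only MST3 replicate 3 stood clearly above, and the log2 difference was 0.18 (limma, adjusted p = 0.719). NDUFAF4 measured 5.18, 5.58 and 3.79 FPKM in MST3 libraries, against 5.33, 5.63 and 4.87 FPKM in vector libraries, with a log2 difference of -0.11, the lowest of any NDUF gene tested. The partners thus differed in sign, each within the spread of its libraries.

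NDUFAF2 is a paralog of the subunit NDUFA12 and is released late in assembly. It measured 15.4, 8.38 and 7.17 FPKM in MST3 libraries, against 7.55, 7.80 and 8.23 FPKM in vector libraries. MST3 replicate 1 was 1.83 times the next library, and the ratio of means of 1.31 became 0.989 without it. NDUFAF1, of the complex that assembles the membrane arm, measured 7.57, 5.50 and 7.14 FPKM in MST3 libraries, against 6.55, 6.23 and 5.51 FPKM in vector libraries. NDUFAF6 and NDUFAF7 had log2 differences of 0.09 and 0.01.

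Set against each other per library, subunits stood above assembly factors in MST3 replicates 1 and 3. The median log2 level relative to the vector mean was 0.41 for subunits and 0.12 for assembly factors in MST3 replicate 1. In MST3 replicate 2 both were 0.04. In MST3 replicate 3 it was 0.14 for subunits and -0.04 for assembly factors. In the vector libraries both groups of genes lay between -0.02 and 0.02. In the contrast the subunit median exceeded the assembly factor median by 0.10, and by 0.05 without MST3 replicate 1, over 36 and 8 genes. With 0.1 or 0.01 added to FPKM in place of 1, this gap was 0.081 or 0.078. No test was made of the gap because the genes share their libraries.

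**Figure D3:**
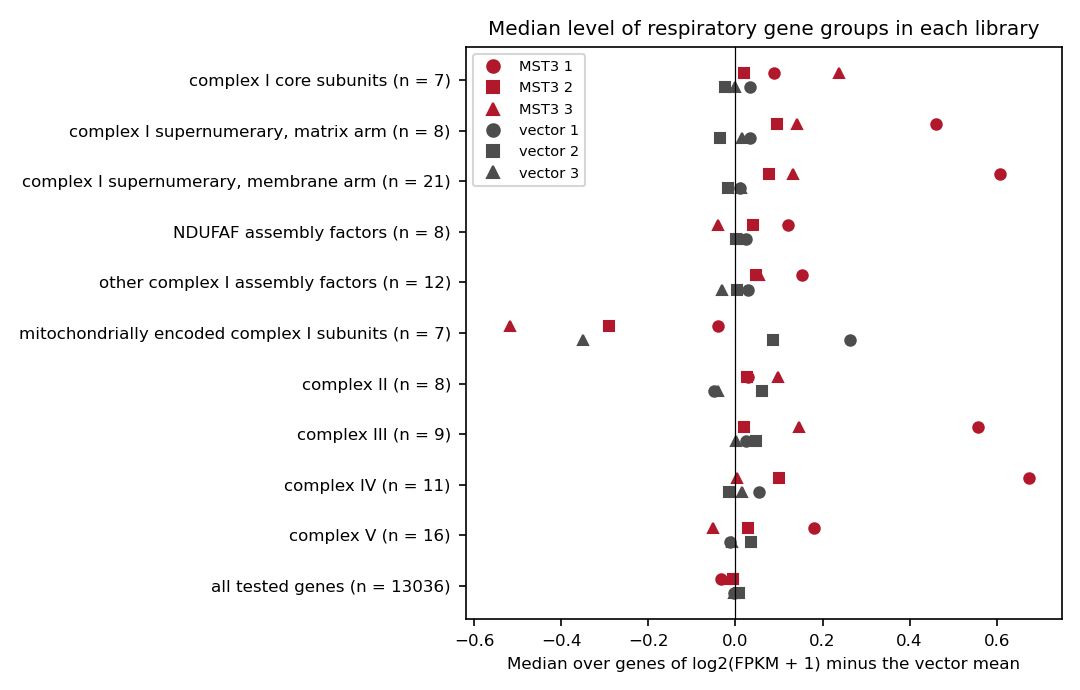
Median over genes of log2(FPKM + 1) minus the vector mean of each gene (horizontal axis) for groups of respiratory genes (rows), with red for MST3 libraries above, grey for vector libraries below, and circles, squares and triangles for replicates 1, 2 and 3. Of the 6 libraries, MST3 replicate 1 has the highest median for the supernumerary subunits of complex I, at 0.46 (matrix arm) and 0.61 (membrane arm). For the nuclear-encoded core subunits it is MST3 replicate 3, at 0.24. Complexes III and IV are also highest in MST3 replicate 1, at 0.56 and 0.67.

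A further 12 factors for complex I assembly without an NDUFAF name were all tested. In MST3 cells 10 were higher and 2 lower, with a median of 0.08 and none with a p under 0.05. TIMMDC1, a membrane protein of the assembly intermediates, measured 21.3, 19.0 and 19.5 FPKM in MST3 libraries, against 18.4, 17.5 and 16.8 FPKM in vector libraries. COA1, which is also known for its part in complex IV assembly, measured 4.12, 3.87 and 3.21 FPKM in MST3 libraries, against 3.07, 3.14 and 3.13 FPKM in vector libraries. Both separated the groups, with log2 differences of 0.17 for TIMMDC1 and 0.20 for COA1. Of the 12 factors, 2 separated with MST3 above, beside 5.19% of all genes. A further 1 separated with MST3 below, beside 6.7% of all genes.

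NDUFA4 measured 23.6, 18.5 and 21.5 FPKM in MST3 libraries, against 21.5, 22.6 and 20.4 FPKM in vector libraries, a log2 difference of -0.02. The 3 NDUF genes under the expression filter rested on few reads. NDUFA7, a matrix arm subunit, had 23, 17 and 11 reads in MST3 libraries and 8, 16 and 9 reads in vector libraries. NDUFA4L2, which is known as a hypoxia-induced gene, had 18, 13 and 15 reads in MST3 libraries and 8, 2 and 8 reads in vector libraries, without overlap. NDUFC2-KCTD14 had 2 reads, both in MST3 replicate 1.

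The mitochondrially encoded core subunits were mostly on the lower side. Of the 7 MT-ND genes 2 were higher and 5 lower in MST3 cells, none with a p under 0.05, and their median difference was -0.28, or -0.35 without MST3 replicate 1. Their median level relative to the vector mean was -0.04, -0.29 and -0.52 in MST3 libraries and 0.26, 0.09 and -0.35 in vector libraries, so the vector libraries differed among themselves about as much. MT-ND1, at the base of the membrane arm, measured 1214, 1084 and 1187 FPKM in MST3 libraries, against 1853, 1401 and 1132 FPKM in vector libraries. MT-ND3 measured 3512, 1447 and 1067 FPKM in MST3 libraries, against 1175, 1219 and 1059 FPKM in vector libraries, with MST3 replicate 1 again apart.

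Nuclear-encoded subunits of complexes III and IV were also mostly on the higher side. In complex III 8 of 9 genes were higher with a median difference of 0.27, or 0.05 without MST3 replicate 1, in which the median was 0.56. In complex IV 9 of 11 were higher with a median of 0.22, or 0.08 without MST3 replicate 1, in which it was 0.67. In complex II with its assembly factors 5 of 8 were higher with a median of 0.05, and in complex V 9 of 16, also with a median of 0.05. Without MST3 replicate 1 the medians were 0.05 in complex II and -0.02 in complex V. No gene of these lists was called. UQCR11, a small subunit of complex III, measured 11.2, 8.62 and 11.2 FPKM in MST3 libraries, against 7.19, 7.70 and 6.98 FPKM in vector libraries (limma, adjusted p = 0.719). COX8A, a small subunit of complex IV, measured 219, 132 and 224 FPKM in MST3 libraries, against 134, 110 and 128 FPKM in vector libraries (limma, adjusted p = 0.719).

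Transcription factors and coactivators known to act on respiratory genes did not lean to the same side in every MST3 library. Of 9 tested regulators 3 were higher and 6 lower in MST3 cells, with a median of -0.07 and none called. Over all genes 46.6% were higher. In MST3 replicates 1, 2 and 3, 2, 7 and 3 of the 9 were above the vector mean. Without MST3 replicate 1, 4 of the 9 were higher (48.8% of all genes), with a median of -0.02. ESRRA, an orphan nuclear receptor that drives mitochondrial genes, measured 25.3, 19.5 and 29.8 FPKM in MST3 libraries, against 17.7, 16.6 and 19.4 FPKM in vector libraries (limma, adjusted p = 0.719). NRF1 measured 6.20, 6.84 and 6.45 FPKM in MST3 libraries, against 7.05, 7.45 and 7.01 FPKM in vector libraries (limma, adjusted p = 0.719). Both separated the groups, ESRRA with MST3 above, as in 5.19% of all genes, and NRF1 with MST3 below, as in 6.7%.

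Gene length and base composition moved with these levels. Across the 36 subunits, Pearson's r between log2 gene length and the level relative to the vector mean was -0.52 in MST3 replicate 1, -0.24 and -0.17 in MST3 replicates 2 and 3, and between -0.06 and 0.09 in vector libraries. With GC content r was 0.67 in MST3 replicate 3, 0.07 and -0.14 in MST3 replicates 1 and 2, and 0.13, -0.35 and 0.33 in vector libraries. These r describe 36 genes that share their libraries. All 18 shorter subunits (531 to 2263 bp) were higher in MST3 cells, as were 12 of the 18 longer ones (2475 to 12268 bp), with median differences of 0.23 and 0.10. In MST3 replicate 1 the medians were 0.62 for the shorter and 0.11 for the longer subunits.

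The same lengths were then read over all genes. The 2007 tested genes between 531 and 2263 bp had a median of 0.14 in MST3 replicate 1 and a median difference of 0.08, with 1309 of them higher. The 9123 between 2475 and 12268 bp had medians of -0.06 and -0.03. With a smooth trend on length and GC content removed from every library over all genes, the subunit median difference was 0.17, against 0.21 before, and the assembly factor median was 0.08, against 0.10. Core subunits had a median length of 4523 bp, and matrix arm and membrane arm supernumerary subunits 1652 and 1941 bp. Median GC content was 55.7% in core and 47.6% in supernumerary subunits. Role thus cannot be told apart from length and GC content between core and supernumerary subunits. The tested subunits together had a median length of 2369 bp, and assembly factors had 2487 bp. Their median GC content was 48.3% in subunits and 45.5% in assembly factors, so the 2 sets differed in GC content.

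**Figure D4:**
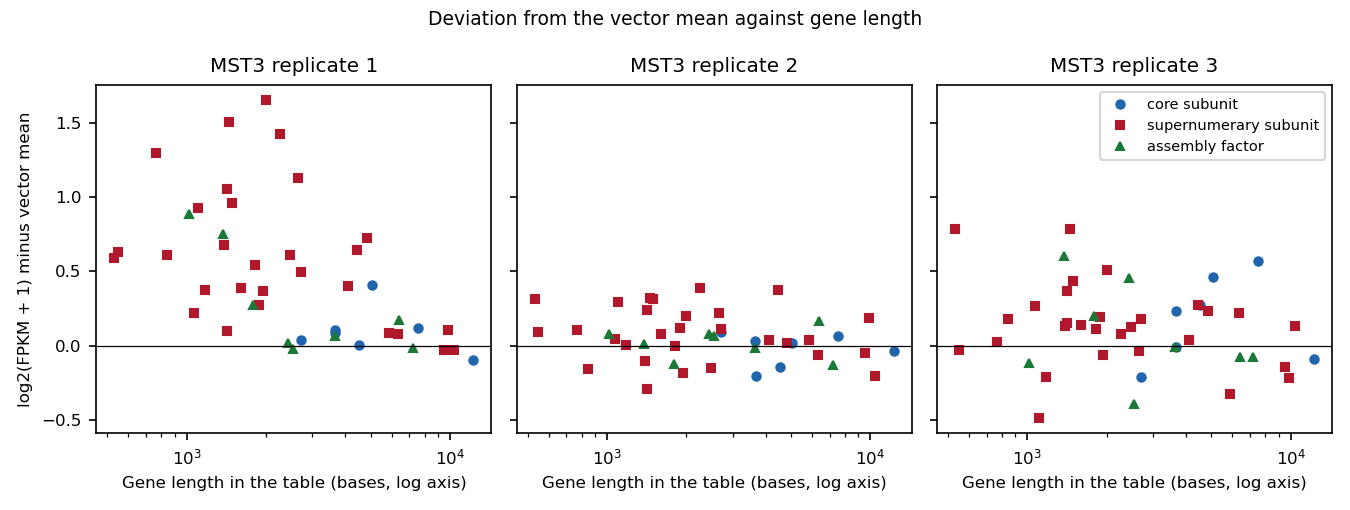
Level of each of 36 subunits and 8 assembly factors relative to its vector mean (vertical axis, log2(FPKM + 1) difference) against gene length (horizontal axis, log scale, bp) in MST3 libraries. In MST3 replicate 1 the short subunits stand highest (r = -0.52 over subunits), and in MST3 replicates 2 and 3 the relation is weaker (r = -0.24 and -0.17).

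Several NDUF loci share exon bases with other genes, which can move reads between them. Of the 37 subunits 13 shared exon bases with another gene on the same strand, and 8 shared more than 10% of theirs. NDUFV2 shared 28.4%, NDUFS3 19.6% and NDUFC2 16.3%. For genes on the opposite strand, 9 subunits and 1 assembly factor shared more than 10%. The 24 subunits without a same-strand partner had a median difference of 0.21 and a median level of 19.8 FPKM. The 12 tested with a partner had a median difference of 0.15 and a median level of 5.76 FPKM. Whether shared exon bases lower the levels given for genes such as NDUFV2 and NDUFA9 was not tested.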

How the data were processed

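The authors deposited 1 table of FPKM values for 6 libraries. Per the submitters' processing notes HISAT2 was among the tools. The version, read counter, strandedness, build and annotation were not given in the sources used here. All Ensembl positions matched GENCODE 29 on GRCh38. FPKM times length gave whole reads in 100.0% of values (tolerance 0.01).

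Groups follow the sample titles. The scale was log2 of FPKM plus 1. The two-sided test was eBayes with an intensity trend (limma 3.58.1, R 4.3.3), for genes averaging 1 FPKM or more, with Benjamini-Hochberg adjustment over all of them. Medians over lists carry no test. Tables and plots used Python 3.11.15, pandas 2.3.3 and matplotlib 3.10.9. Simulated data were used to check the fit. Members, lists and tests were chosen with earlier results of these data known.

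Values in every library are given for the core subunits, the 8 other subunits and 4 assembly factors with the smallest p, the highest and lowest genes, genes under the filter and genes with 1 library apart by over 1.5 times, plus NDUFAF4, except 1 core subunit that is counted but not reported here. NDUFAF4 was added as the partner of NDUFAF3. Up to 2 genes by smallest p come from other lists. Alternatives covered pseudocount, filter, scaling, variance model, replicate block, voom on the recovered reads, length and GC trends (splines with 3 degrees of freedom) and each library left out. Reads with no unique molecular identifiers are not independent molecules.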

Additional observations from a re-analysis of the deposited data

How the results depend on the processing

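Of 13036 genes 1 was called and of 45 NDUF genes 0 were called in the main analysis and in all 18 alternatives run on all genes, with a smallest adjusted p among NDUF genes of 0.192 (without MST3 replicate 2). The count of all genes at an unadjusted p under 0.05 was 701, and ranged to 298 without vector replicate 2 and 2554 without MST3 replicate 2. MST3 replicate 1 had the most weight. With each library left out in turn, the median log2 difference of subunits ranged from 0.0668 (without MST3 replicate 1) to 0.282, that of assembly factors from 0.0134 (also without MST3 replicate 1) to 0.143, and their difference from 0.05 to 0.16. On voom of the recovered reads the assembly factor median was 0.17, against 0.10. Voom gave a subunit median of 0.24. Under the other settings the subunit median was 0.17 to 0.22 and the assembly factor median 0.08 to 0.14. Of 45 NDUF genes 28 kept their sign in all alternatives and 17 changed it in at least 1.

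The labels do not say whether the replicate numbers pair the libraries, and the values that follow do not settle it. The correlations of same-numbered deviations were 0.02, 0.23 and 0.04 over 13036 genes, and with the replicate block 1338 genes had an unadjusted p under 0.05, 1 gene and 0 NDUF genes were called, while the subunit median of 0.21 cannot move, because a block in a balanced design leaves every mean difference as it is. Median-of-ratios scaling equals the deposited scaling. Settings with NDUFA4 counted as a subunit, with subunits free of same-strand exon overlap and with other assembly factors added were chosen after seeing the data. At 3 libraries a group, the 95% intervals of 30 of 36 subunits stayed within 1 of no difference on the log2 scale. The other 6 reached above 1, so this count depends on where an interval lies as well as on its width. NDUFA7, NDUFA4L2 and NDUFC2-KCTD14 rest on too few reads to compare.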

Other observations

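Pseudogenes of NDUF genes, which can take reads from their parents, held few reads in most cases. The table lists 59 NDUF pseudogenes of 19 parent genes, of which 22 had a read in some library and 1 passed the expression filter. Together they held 49, 69 and 32 reads in MST3 libraries and 33, 60 and 45 reads in vector libraries, and the highest single value was 1.89 FPKM. The pseudogene of NDUFV2 held 18, 24 and 11 of these reads in MST3 libraries and 11, 22 and 9 in vector libraries. NDUFV2 itself held 61, 71 and 48 reads in MST3 libraries and 67, 61 and 63 in vector libraries. Whether reads moved between them was not tested.

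Partners that share exon bases with NDUF genes on the same strand had few reads in most cases. The partner of NDUFB8 held 3, 0 and 2 reads in MST3 libraries and 5, 4 and 7 reads in vector libraries. PTPMT1, the partner of NDUFS3, held 46, 71 and 90 reads in MST3 libraries and 49, 73 and 82 reads in vector libraries. The readthrough gene that overlaps NDUFA13 held 18, 13 and 34 reads in MST3 libraries and 5, 7 and 9 reads in vector libraries.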
